A study of Solanum lycopersicum with 21 samples.

Results

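FUL2-J2 and FUL2-TM3 are complexes of the same tomato MADS-domain protein with different partners, and their binding to naked genomic DNA was compared here by peak. All 4940 peaks of the FUL2-J2 list and all 10654 peaks of the FUL2-TM3 list were included, 15594 of the 52995 peaks in the series. Peaks of the 2 lists that overlapped by at least 1 bp were taken as shared, and the rest as peaks of FUL2-J2 only or of FUL2-TM3 only. Each comparison was made with and without the peaks whose summit, the position of the highest read pileup, lay within 1 Mb of a chromosome end.

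MADS-domain TFs bind CArG-boxes, short AT-rich elements, as dimers, and pairs of dimers can bind as a tetramer and loop the DNA between neighbouring boxes. The partner in such a complex can therefore alter which sites are held. FUL2 belongs to the AP1/FUL-like clade, whose members act in meristem identity and fruit ripening. J2 (JOINTLESS2) is a SEPALLATA-type protein known for its role in inflorescence branching and in the abscission zone of the pedicel, and TM3 is a SOC1-like protein known as a promoter of the floral transition.

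In DAP-seq, a protein made in a cell-free system is incubated with fragmented genomic DNA, pulled down by a tag, and the DNA it holds is sequenced. Chromatin is absent, so a peak is binding in vitro and not occupancy in a meristem. The groups used here were FUL2 with J2 and FUL2 with TM3, with 3 libraries each, and the control named input, 3 libraries of a wheat germ reaction to which no plasmid was added. The FLAG tag used for the pull-down was on FUL2, and the plasmids of FUL2 and its partner were mixed in equal molar amounts, so the pull-down selected on FUL2 and not on the partner. All were incubated with the same kind of unamplified library of leaf DNA from the cultivar Moneyberg. FUL2 with J, and MC with J, J2 or TM3, complete the 6 complexes and 21 samples of the series. Plant age does not apply to a binding reaction, and no genotype other than Moneyberg was used.

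One pooled peak list was deposited for each complex, so there was no spread between replicates, and no difference between the lists was tested. Intervals in parentheses are 95% Wilson intervals for shares and binomial intervals for medians. They cover counting over peaks only, and not differences between libraries or copies made when the recovered DNA was amplified. The range over the 12 chromosomes is given as a description of evenness along the genome. Both lists were called against the input, and their strengths are on different scales. Strength was therefore given as a percentile within the own list, from 0 for the weakest to 100 for the strongest peak, by the −log10 q or by the fold over the local background.

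The lists differed in depth as well as in partner. Scaled to the input, a read of FUL2-J2 counted as 0.460 and a read of FUL2-TM3 as 0.694, which gives FUL2-J2 2.18 times and FUL2-TM3 1.44 times the depth of the input. The number of reads at the summit could be solved for 89.3% of the FUL2-J2 peaks, with a median of 120 reads, and for 95.1% of the FUL2-TM3 peaks, with a median of 83. The shallower alignment thus gave the longer list. The median fold was 4.25 for FUL2-J2 and 3.31 for FUL2-TM3, and the covered length was 1.60 and 5.61 Mb. Partner and depth cannot be told apart in these lists.

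The peaks that FUL2-J2 and FUL2-TM3 shared were 2082, each of them a pair of a single peak from either list. They made up 42.1% (40.8–43.5%) of the FUL2-J2 peaks and 19.5% (18.8–20.3%) of the FUL2-TM3 peaks, which left 2858 peaks of FUL2-J2 only and 8572 of FUL2-TM3 only. As background, 18.4% of the 26850 regions with a peak in any of the 6 lists held a FUL2-J2 peak and 39.6% a FUL2-TM3 peak. Such regions exist only where some list called a peak. The rule itself used start and end positions alone, but a list holds only peaks that passed the calling threshold of 0.0001. A shared peak thus passed it with both complexes, and strength is part of the classes in this way. Overlap is easier for wide peaks and keeps the summits of a pair close, so widths and summit distances of shared peaks are given as a description.

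The 2 shares were closer to each other away from the chromosome ends. Without the peaks within 1 Mb of an end, 2049 shared peaks were 42.3% of 4844 FUL2-J2 peaks and 35.7% (34.5–37.0%) of 5736 FUL2-TM3 peaks. Within 1 Mb of an end, 33 shared peaks were 34.4% of 96 FUL2-J2 peaks, but 0.671% of 4918 FUL2-TM3 peaks. In the regions of the 6 lists, a FUL2-J2 peak was called at 22.8% away from the ends and at 1.84% within 1 Mb of one, and a FUL2-TM3 peak at 25.5% and 93.9%. On the sequence not placed on a chromosome, 5 of 7 FUL2-J2 peaks and 5 of 319 FUL2-TM3 peaks were shared, where 1.72% and 78.2% of the regions held a peak of the respective list.

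Among chromosomes, the shared share of FUL2-J2 peaks ranged from 38.6% on chromosome 8 to 46.3% on chromosome 4. That of FUL2-TM3 ranged more widely, from 13.2% on chromosome 5 to 39.2% on chromosome 2. Without the ends it ran from 33.9% on chromosome 9 to 40.6% on chromosome 10, so that the chromosomes resembled each other once the ends were left out. Away from the ends there were 2.21 to 2.89 shared peaks per Mb, 2.97 to 3.95 peaks of FUL2-J2 only and 3.45 to 5.27 peaks of FUL2-TM3 only.

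The peaks of FUL2-TM3 only were crowded at the chromosome ends, and those of FUL2-J2 only were not. Of the 8572 peaks of FUL2-TM3 only, 4885 or 57.0% (55.9–58.0%) had a summit within 1 Mb of an end, against 63 or 2.20% of the peaks of FUL2-J2 only and 1.59% of the shared peaks. An even spread over the genome would put 2.91% of the peaks there. Within the first 0.1 Mb there were 251 peaks of FUL2-TM3 only per Mb, and from 0.1 to 0.25 Mb 335. From 0.25 to 0.5 Mb there were 309, from 0.5 to 1 Mb 102 and from 1 to 2 Mb 5.46. Peaks of FUL2-J2 only numbered 2.08, 0.278, 2.17, 3.67 and 4.13 per Mb in the same bins. Beyond 2 Mb the densities of both kinds stayed between 2.58 and 5.12 per Mb.

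**Figure D1:**
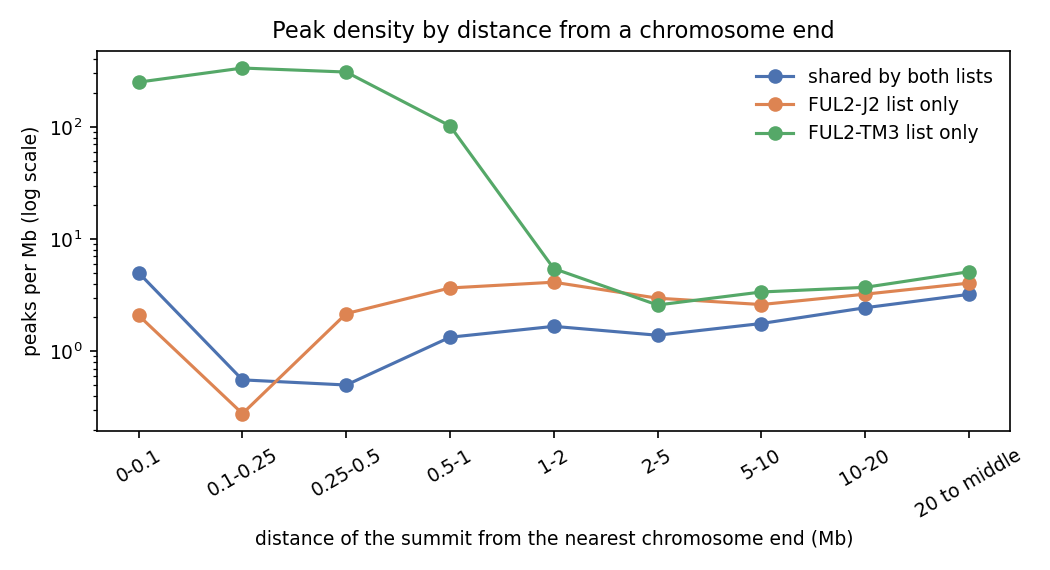
Peaks per Mb (log scale) against the distance of the summit from the nearest chromosome end in Mb, for shared peaks, peaks of FUL2-J2 only and peaks of FUL2-TM3 only. The density of FUL2-TM3 only falls from 102 per Mb at 0.5 to 1 Mb to 5.46 per Mb at 1 to 2 Mb, while the other lines stay at or below 5 per Mb throughout.

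The crowding was found at most ends, but not at all. Of the 24 ends, 17 held 100 or more FUL2-TM3 peaks within 1 Mb, up to 619 at the low end of chromosome 5, whereas FUL2-J2 had 1 to 12 peaks at any end. Chromosome 2 had 13 and 4 FUL2-TM3 peaks at its ends, the high end of chromosome 1 had 2 and the high end of chromosome 6 had 12. The share of a chromosome's FUL2-TM3 peaks within 1 Mb of its ends thus ran from 4.66% on chromosome 2 to 64.7% on chromosome 8.

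The length of the crowded stretches differed between ends. At the 21 ends with at least 20 FUL2-TM3 peaks within 2 Mb, the distance that held 95% of these peaks was 0.706 Mb in the median. It was shortest at the high end of chromosome 12, with 165 peaks in 0.272 Mb. At the low end of chromosome 5 it was 1.04 Mb, with 641 peaks. The stretches held a median of 461 peaks per Mb, from 12.03 at the sparse low end of chromosome 2 to 619 at the low end of chromosome 5. Neighbouring FUL2-TM3 summits were 1.62 kb apart in them (median over the ends) against 82.6 kb away from the ends. FUL2-J2 had 49 peaks in these stretches against 4809 of FUL2-TM3.

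At the 1 Mb limit itself, the nearest FUL2-TM3 peaks inside lay at 0.999 Mb on chromosome 5 (percentile 80.2) and 0.9999 Mb on chromosome 3 (percentile 56.9), and the nearest outside at 1.0012 and 1.0018 Mb on chromosome 5 (percentiles 20.9 and 11.7). For FUL2-J2 the nearest inside lay at 0.9847 and 0.9979 Mb (percentiles 24.4 and 71.1), and the nearest outside at 1.0089 and 1.0212 Mb (percentiles 1.24 and 68.1). All of these peaks belonged to a single list. The limit therefore cut through the crowded stretch at the low end of chromosome 5. The distance that held 95% of the peaks also exceeded 1 Mb at the low ends of chromosomes 3 (1.09 Mb) and 12 (1.34 Mb). The same held at the high end of chromosome 11 (1.58 Mb) and the sparse low end of chromosome 2 (1.83 Mb). Part of these stretches was thus counted as away from the ends.

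The end peaks of FUL2-TM3 only also had another shape. They were 542 bp wide in the median, 18.2% of them exceeded 1 kb, and the widest measured 10050 bp. Peaks of FUL2-TM3 only away from the ends were 305 bp wide and shared FUL2-TM3 peaks 333 bp. The end peaks had a median fold of 2.94, below the 3.64 of FUL2-TM3 only away from the ends and the 4.14 of shared peaks. Their summits had a median of 87 reads over a local background of 19.2 input reads, against 79 over 13.3 away from the ends and 82 over 12.6 at shared peaks. At the ends, the read number was thus not lower than elsewhere, while the input background was higher. The part of that background in the result was not tested.

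The strongest end peaks of FUL2-TM3 only were on chromosomes 4 and 12 (coordinates of the Moneyberg assembly, here and below). The first spanned 67755445 to 67756400, with a fold of 4.66, 169 reads over a background of 24.4 and percentile 99.3. The second spanned 288241 to 289243, with a fold of 5.42, 139 reads over 17 and percentile 99.1. Both also had an MC-TM3 peak, at percentiles 74.8 and 46.1 of that list, and neither had a peak with J or J2.

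Shared peaks ranked higher than unshared peaks in both lists. A shared peak had to pass the calling threshold in both lists, which is easier for a strong site. How far this alone sets the ranks here, and the shares by strength below, was not tested. In the FUL2-J2 list, the median percentile by −log10 q was 63.1 for shared peaks and 42.8 (41.3–44.2) for peaks of FUL2-J2 only. In the FUL2-TM3 list it was 73.1 and 44.1 (43.1–45.1). With the ends left out and the lists ranked anew, the medians were nearly equal in both lists, 63.2 against 42.5 in FUL2-J2 and 63.1 against 42.6 in FUL2-TM3.

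A randomly drawn shared peak outranked a randomly drawn unshared peak with a probability of 0.638 in FUL2-J2 (0.588 to 0.679 among chromosomes) and 0.723 in FUL2-TM3 (0.667 to 0.765). Without the ends these probabilities were 0.640 and 0.654. Ranked by fold, FUL2-J2 gave 0.571 and FUL2-TM3 0.812, or 0.573 and 0.691 without the ends. The separation by fold was therefore smaller than that by −log10 q in FUL2-J2 and larger in FUL2-TM3. The median folds behind it were 4.37 for shared peaks and 4.18 for peaks of FUL2-J2 only, and 4.14 and 3.14 in FUL2-TM3.

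The share of shared peaks followed strength in different ways. Without the ends, 14.4% of the weakest decile of FUL2-TM3 peaks and 60.8% of the strongest decile were shared. In FUL2-J2 the weakest decile was shared at 39.3%, the share then fell to 28.9% in the fourth decile, and it reached 79.2% in the strongest. Even the strongest decile left 225 peaks of FUL2-TM3 only and 101 of FUL2-J2 only. With the ends included, the FUL2-TM3 shares were 4.32% in the weakest and 47.7% in the strongest decile.

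**Figure D2:**
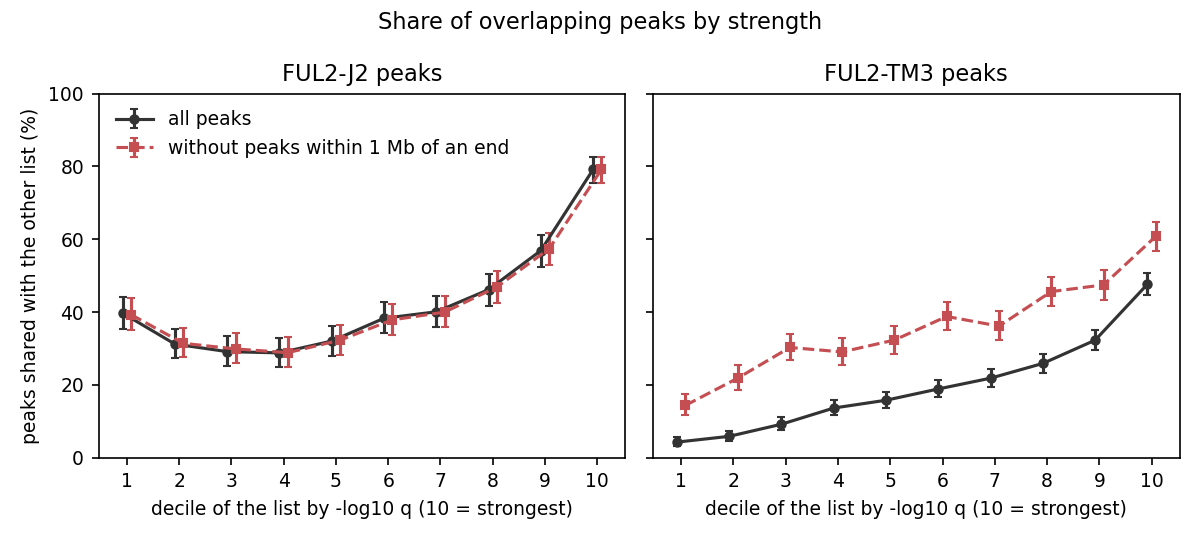
Share of peaks (%) that overlap a peak of the other list, by decile of the own list in order of −log10 q, for FUL2-J2 (left) and FUL2-TM3 (right), with 95% Wilson intervals as bars. The share rises to 79.2% in FUL2-J2 and to 60.8% in FUL2-TM3 without the ends (dashed), and leaving out the ends raises the FUL2-TM3 shares throughout.

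Local background moved with sharing in opposite directions. Away from the ends, 30.3% of the FUL2-J2 peaks at the lowest, genome-wide background of 10.6 input reads were shared, and 60.5% of those with a background of 20 or more reads. In FUL2-TM3 the shares were 41.7% at its genome-wide background of 10.8 reads and 20.5% at 20 or more. Shared peaks of FUL2-J2 away from the ends had a median of 133 reads over a background of 12.1, and peaks of FUL2-J2 only 114 reads over 10.8. The part of the background in the shares was not tested.

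The summits of shared peaks lay a median of 20.5 bp (19–22 bp) apart, with quartiles of 8 and 42 bp. Of the 2082 pairs, 638 (30.6%) were within 10 bp, 1663 (79.9%) within 50 bp and 159 (7.64%) more than 100 bp apart. The shift had no preferred side, since the FUL2-TM3 summit had the higher coordinate in 1018 pairs, the lower in 1020 and the same in 44. The median distance ranged from 16 to 24.5 bp among chromosomes, and the largest was 3030 bp on chromosome 3.

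The summits were closest where binding was strong. In the weakest quartile of the FUL2-J2 list the median distance of shared peaks was 34 bp, and it was 22, 18 and 16 bp in the following quartile groups. By quartile groups of the FUL2-TM3 list it was 46, 27, 19 and 18 bp. The 531 pairs in the strongest quartile of both lists were 16 bp apart, and the 33 pairs at chromosome ends 29 bp.

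Shared peaks had nearly the same width in both lists, with a median difference of 2 bp (−2 to 4 bp) for FUL2-TM3 minus FUL2-J2 and quartiles of −42 and 45 bp. The difference by strength depended on the list used for the order. FUL2-TM3 was wider by 43 bp in the weakest quartile of FUL2-J2, by 20 bp in the next, and narrower by 2 and 30 bp in the upper quartile groups. By quartile groups of FUL2-TM3, from the weakest to the strongest, the median differences were −2, −11, −13 and 13 bp. Each list thus had the wider peak where its own peaks were strongest. Peaks of FUL2-J2 only had a median width of 296 bp against 335 bp for shared FUL2-J2 peaks.

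**Figure D3:**
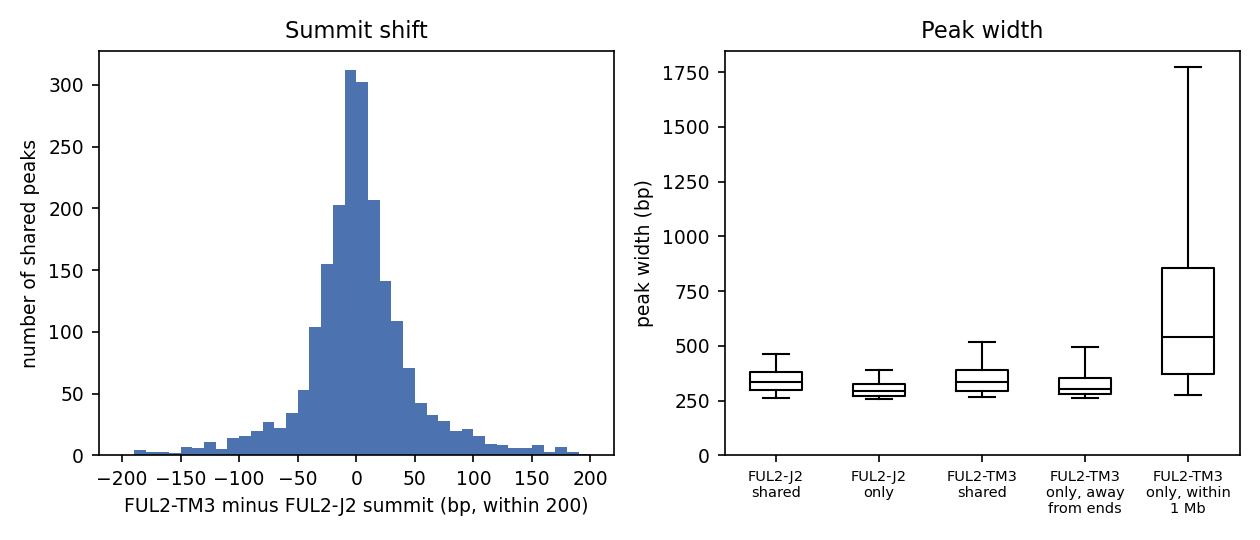
Left, number of shared peaks by the FUL2-TM3 minus FUL2-J2 summit position in bins of 10 bp, for the 2042 of 2082 pairs within 200 bp. Right, peak width in bp by class, with the median as line, the quartiles as box and the 5th and 95th percentiles as whiskers, where FUL2-TM3 only within 1 Mb of an end stands at a median of 542 bp and the other classes at 296 to 335 bp.

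Strength in the 2 lists went together at the top and loosely below. From the weakest to the strongest quartile of FUL2-J2, the shared peaks had median FUL2-TM3 percentiles of 51.7, 64.6, 71.1 and 85.7. From the weakest to the strongest quartile of FUL2-TM3, the median FUL2-J2 percentiles were 26.4, 41.6, 60.9 and 78.0. With the ends left out and the lists ranked anew, the FUL2-TM3 medians were lower, at 39.0, 52.7, 60.8 and 79.5. The FUL2-J2 medians were then 30.5, 52.2, 64.5 and 81.6. Both lists share the input control, so these values are set side by side and no correlation is given.

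**Figure D4:**
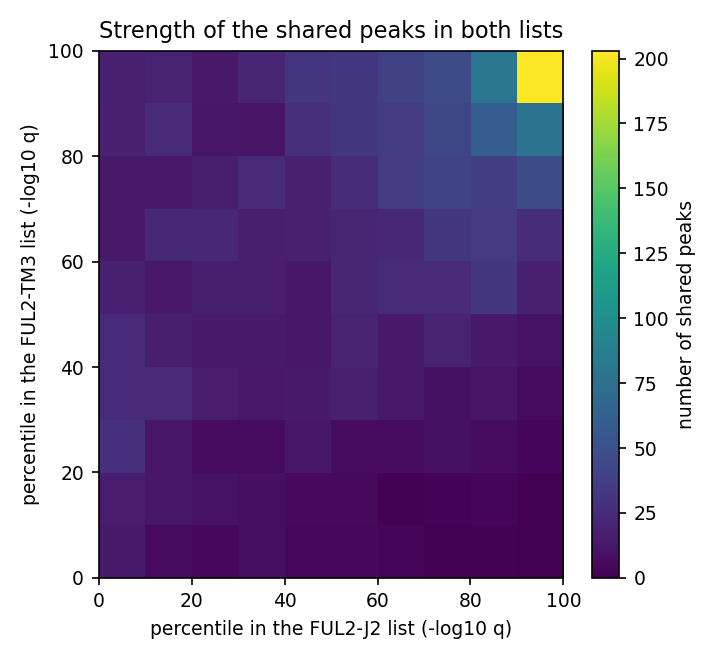
Number of shared peaks (colour) by percentile of −log10 q in the FUL2-J2 list (x axis) and in the FUL2-TM3 list (y axis), in steps of 10 percentile points. The fullest field, with 203 peaks, is the strongest decile of both lists.

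The pair that ranked highest in the 2 lists jointly, by the lower of its percentiles, was on chromosome 1, 69878590 to 69879053. It was the strongest peak of FUL2-J2 but not of FUL2-TM3, and had 334 reads over a background of 19.02 with FUL2-J2 (fold 7.72, percentile 100) and 209 over 19.4 with FUL2-TM3 (fold 7.16, percentile 99.99), with summits 7 bp apart. The next lay on chromosome 8 from 15955818 to 15956242, with folds of 9.80 and 9.08, percentiles of 99.96 and 99.93, and summits 9 bp apart. Both were among the strongest peaks of the other 4 lists too, at percentiles of 99.7 and above.

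Some shared peaks ranked far apart. Away from the ends, 330 of 2044 pairs (16.1%) had a FUL2-J2 percentile at least 30 points above that in FUL2-TM3, and 350 (17.1%) the reverse. The first lay at median percentiles of 82.4 and 34.2, with a FUL2-TM3 peak that was 61 bp narrower, and the second at 21.7 and 79.9, with a FUL2-TM3 peak that was 61.5 bp wider. Their local backgrounds were alike, at medians of 12.1 and 13 input reads in the first and 13 and 12.9 in the second. The percentiles of these pairs were ranks in the whole lists, end peaks included. Without the ends, the median FUL2-TM3 percentile of shared peaks was 73.3 by such ranks and 63.1 when ranked anew. The counts of both sets therefore depend on this choice, and were not repeated with new ranks.

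The largest difference towards FUL2-J2 was on chromosome 8 from 60820000 to 60820372. It had 166 reads over a background of 16 with FUL2-J2 (fold 4.55, percentile 85.3) and 66 reads over the same background with FUL2-TM3 (fold 2.75, percentile 8.74). The summits were 3 bp apart. The peak ranked at 96.9 in MC-J2 and 68.2 in MC-TM3, but at 4.74 in FUL2-J and 0.504 in MC-J. The next was on chromosome 10 from 59030547 to 59030976, with percentiles of 95.2 in FUL2-J2 and 21.2 in FUL2-TM3, and of 95 in MC-J2 and 96.5 in MC-TM3.

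The largest difference towards FUL2-TM3 was on chromosome 3 from 29460475 to 29461775. FUL2-J2 had 214 reads there over a background of 55 (fold 1.77, percentile 0.202), and FUL2-TM3 215 reads over 40 (fold 3.66, percentile 99.0). The background of this region was high in both lists, and higher in FUL2-J2. On chromosome 11 from 29829754 to 29830492 the backgrounds were 11.4 and 11.5, and FUL2-J2 had 78 reads (percentile 0.668) and FUL2-TM3 94 (percentile 94.3), with summits 199 bp apart. Neither region had an MC-J2 peak.

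The unshared peaks away from the ends were mostly isolated from the other list rather than just missed by the 1 bp rule. Of 2793 peaks of FUL2-J2 only, 23 (0.823%) lay within 500 bp of a FUL2-TM3 peak, and the median distance was 48.4 kb. Of 3373 peaks of FUL2-TM3 only, 22 (0.652%) lay within 500 bp of a FUL2-J2 peak, at a median of 52.9 kb. Nearest to the limit, the smallest overlaps were 24 bp on chromosome 4 (20803261 to 20803533 in FUL2-J2, percentile 16.7, and 20802858 to 20803284 in FUL2-TM3, percentile 57.3) and 76 bp on chromosome 1. The smallest gap was 5 bp on chromosome 9, with percentiles of 14.5 and 2.97, and the next, of 47 bp, lay on chromosome 5 within 1 Mb of an end.

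The other complexes were called from other libraries, although against the same input, and their lists were set beside the classes. MC is the AP1-type relative of FUL2, known from the macrocalyx mutant with leaf-like sepals, and J (JOINTLESS) is the MADS-domain protein needed for the pedicel abscission zone. Of all 21224 regions away from the ends, 21.6% held an MC-J2 peak, 46.7% an MC-TM3 peak, 47.8% a FUL2-J peak and 49.8% an MC-J peak. With the ends included, the values were 17.4% for MC-J2 and 42.1% for MC-TM3. The MC-J2 list is the shortest of the series with 4677 peaks, against 11457 in MC-TM3, and the part of list length in the shares below was not tested.

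Shared peaks were also found in most other lists. Away from the ends, 79.9% of the 2044 shared peaks also had an MC-J2 peak, 94.8% an MC-TM3 peak, 86.6% a FUL2-J peak and 76.7% an MC-J peak. In all 4 lists were 1271 (62.2%), and in none 25 (1.22%). All 4 shares were above those over all regions. Those regions include ones called in a single list, whereas shared peaks had passed the threshold in both lists and ranked higher. How far this choice sets the shares was not tested.

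The peaks of FUL2-J2 only were found in MC-J2 and in MC-TM3 at similar shares, although the MC-J2 list is the shorter. Of the 2793 away from the ends, 66.1% had an MC-J2 peak and 63.8% an MC-TM3 peak. Those with MC-J2 and not MC-TM3 were 547 (19.6%), those with MC-TM3 and not MC-J2 484 (17.3%), and 1299 (46.5%) had both. FUL2-J had a peak at 55.4% and MC-J at 36.1%, and 544 (19.5%) were peaks of all 4 other lists. Against the regions as a whole, these peaks were further above background in MC-J2 (66.1% against 21.6%) than in MC-TM3 (63.8% against 46.7%). The regions as a whole include those with a FUL2-TM3 peak, which this class leaves out by definition. The background of the class itself was not computed.

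The peaks of FUL2-TM3 only were rarely found in MC-J2, and more often in the longer MC-TM3 list. Of the 3373 away from the ends, 50.1% had an MC-TM3 peak and 5.51% an MC-J2 peak, so that 1525 (45.2%) had MC-TM3 without MC-J2 and 22 (0.652%) the reverse. FUL2-J had a peak at 36.9% and MC-J at 31.0%, and 1178 (34.9%) were in none of the 4 lists, against 266 (9.52%) of the peaks of FUL2-J2 only. The share with MC-TM3 was close to the 46.7% over all regions, and those with the other 3 lists were below theirs, for MC-J2 at 5.51% against 21.6%. Those regions include the ones with a FUL2-J2 peak, which this class leaves out by definition. At such peaks MC-J2 was found at 79.9% (shared) and 66.1% (FUL2-J2 only), and MC-TM3 at 94.8% and 63.8%. The background of the class itself is thus lower for MC-J2 and MC-TM3. It was not computed, so neither depletion nor closeness to background is shown. Among chromosomes the share with MC-TM3 ran from 42.1% to 55.8% and that with MC-J2 from 2.89% to 8.08%. For peaks of FUL2-J2 only, the corresponding ranges were 58.3–68.7% and 63.1–71.6%. Since the MC lists differ in length, the ranges of MC-TM3 and MC-J2 are not compared with each other.

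**Figure D5:**
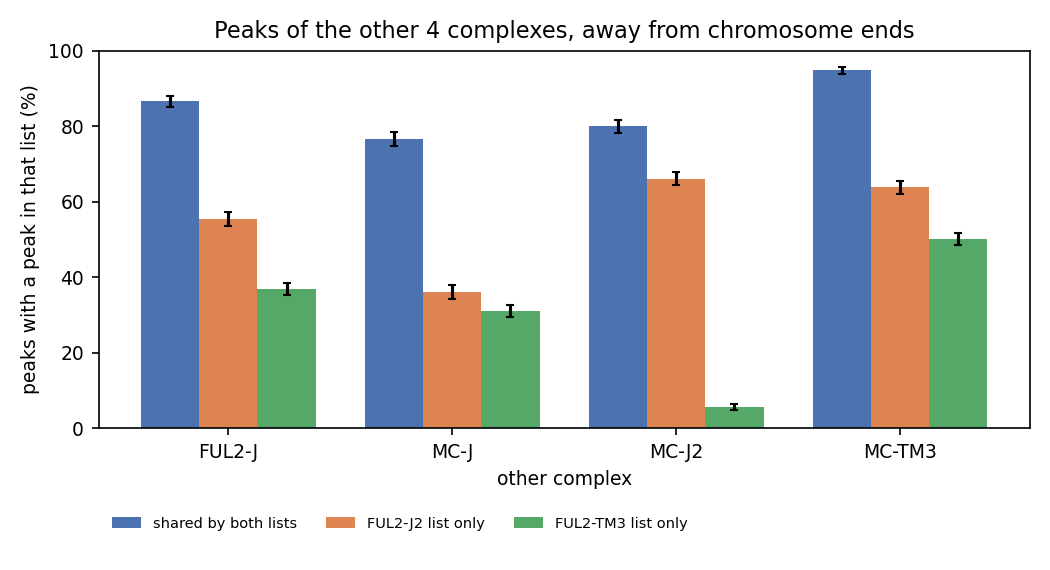
Share of shared peaks, of FUL2-J2 only and of FUL2-TM3 only (%) that have a peak in each of the other 4 lists, away from chromosome ends, with 95% Wilson intervals as bars. Peaks of FUL2-TM3 only stand at 50.1% in MC-TM3 and 5.51% in MC-J2, whereas peaks of FUL2-J2 only stand at 63.8% and 66.1%.

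On the FUL2-J2 side, these shares were higher at strong peaks in both MC lists. From the weakest to the strongest quartile of the FUL2-J2 list, 46.0, 62.5, 76.2 and 93.6% of the peaks of FUL2-J2 only had an MC-J2 peak, and 58.7, 56.5, 67.1 and 81.9% an MC-TM3 peak. In FUL2-TM3 the share of unshared peaks with an MC-TM3 peak rose from 41.3% in the weakest to 67.1% in the strongest quartile. Their share with an MC-J2 peak stayed between 4.96 and 6.45% in all quartile groups. In the strongest quartile, most peaks of FUL2-J2 only thus had an MC-J2 peak and most had an MC-TM3 peak. Most peaks of FUL2-TM3 only were not in MC-J2, but neither were most regions. Over all regions away from the ends, MC-J2 held a peak at 21.6% and MC-TM3 at 46.7%. The background of either class by quartile was not computed, so the 2 sides are not contrasted.

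The strongest peak of FUL2-J2 only was on chromosome 4 from 42260651 to 42261059, with 221 reads over a background of 15, a fold of 6.41 and percentile 99.2. It was a peak of all the other 4 lists, at percentiles of 95.2 in MC-J2, 98 in MC-TM3, 96.4 in FUL2-J and 85.2 in MC-J, so FUL2-TM3 was the single complex without it. The next was on chromosome 3 from 41169053 to 41169402 (fold 7.04, percentile 98.9), and it too was in all 4, at 78.7 in MC-J2 and 91.2 in MC-TM3.

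The strongest peak of FUL2-TM3 only away from the ends was on chromosome 1 from 49479968 to 49480441, with 132 reads over a background of 11, a fold of 7.72 and percentile 99.8. It was a peak of MC-TM3 (81.7) and FUL2-J (67.7), but not of MC-J2 or MC-J. The next was on chromosome 7 from 44817715 to 44818220 (fold 6.96, percentile 99.7), with peaks of MC-TM3 (92.9), MC-J (73.5) and FUL2-J (62.9) and none of MC-J2. The absence of FUL2-J2 was fixed by the choice of these regions, and MC-J2 is absent from most regions.

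At the chromosome ends, the 4885 peaks of FUL2-TM3 only had an MC-TM3 peak at 22.6%, a FUL2-J peak at 1.51% and an MC-J peak at 0.737%. MC-J2 had a peak at 2 of them. In none of the 4 lists were 77.2%. As background, 24.6% of all regions at the ends held an MC-TM3 peak, and the shares were 4.02% for FUL2-J, 3.6% for MC-J and 1.49% for MC-J2. Of these 5218 regions, 93.9% held a FUL2-TM3 peak. The background is thus mostly made of the peaks described here, and is no separate reference for them.

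Among the shared peaks, those that ranked higher with FUL2-J2 and those that ranked higher with FUL2-TM3 also differed in MC-J2. Of the 330 pairs ranked higher by at least 30 points in FUL2-J2, 97.3% (94.9–98.6%) had an MC-J2 peak and 97.9% (95.7–99.0%) an MC-TM3 peak. Of the 350 ranked higher in FUL2-TM3, 51.4% (46.2–56.6%) had an MC-J2 peak and 91.4% (88.0–93.9%) an MC-TM3 peak. Where both MC lists had the peak, its median percentiles were 81.1 in MC-J2 and 85.1 in MC-TM3 in the first set, and 37.9 and 84.5 in the second. The shares with either MC list were thus higher in the first set, by more in MC-J2. The choice of the sets also put them at different FUL2-J2 strengths. Among all shared peaks away from the ends, MC-J2 was found at 50.6% in the weakest FUL2-J2 quartile and 97.8% in the strongest. For MC-TM3 these shares were 90.7% and 99.0%. The difference between the sets in MC-J2 is therefore not separate from FUL2-J2 strength. In the first and second set, the intervals of the median percentiles were 82.2–86.9 and 80.1–87.8 in MC-TM3. In MC-J2 they were 78.2–83.9 and 32.4–46.0. These intervals cover counting over peaks only, and the sets were chosen by their FUL2-J2 and FUL2-TM3 percentiles. No difference between the sets was tested.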

How the data were processed

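FUL2 was combined with J2 or TM3 in DAP-seq with 3 libraries per complex and 3 input libraries. The authors used Trim Galore, HISAT2 with the Moneyberg genome, and MACS2 on merged alignments (versions not given in the sources used here). Each merged alignment is named after 2 alignments, and the merge tool differed between FUL2-J2 and FUL2-TM3, so how many libraries stand behind a list is not settled. The methods state a threshold of 0.0001 on P, while the lowest deposited −log10 q was 4.11 in FUL2-J2 and 4.01 in FUL2-TM3 and the lowest −log10 p 6.48 and 6.00. For every peak the deposited lists hold the fold over the local background (a ratio with a pseudocount of 1), the −log10 p, the −log10 q and the summit offset, but no value per library.

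Python 3.11.15 with pandas 2.3.3, numpy 2.4.6 and scipy 1.17.1 was used for all steps, and matplotlib 3.10.9 for the figures. Percentiles are ranks within a list. A chromosome was taken to end at the last base covered by a peak in any list. Reads and backgrounds were recovered by solving the caller's formulas for fold and p, with reads whole within 0.1. On simulated data this solved 91.5% and 96.1% of the peaks of 2 lists, of which 100% had the true read number. The simulation did not reach the largest read numbers, 421 in FUL2-J2 and 473 in FUL2-TM3. Nor did it reach backgrounds as high as the 55 input reads named above, so recovery was not checked there. No p-value was computed, because peaks do not replicate a complex. The members and comparisons were chosen with earlier results of these data known. Regions named singly were chosen by value: the 2 strongest unshared peaks of either list away from the ends, the 2 strongest of FUL2-TM3 only at an end, the 2 pairs strongest in both lists, and the 2 pairs with the largest percentile difference either way. The alternatives tried were an overlap of 50%, summits at most 100 bp apart, a minimum −log10 q of 10, the 4000 strongest peaks, a minimum fold of 3, the fold as measure of strength, an end window of 2 Mb, and leaving out the ends or the unplaced sequence. The genome sequence and annotation of Moneyberg were not used here, so genes and CArG-boxes were not assigned.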

Additional observations from a re-analysis of the deposited data

How the results depend on the processing

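Of 65 values of 9 results under the alternatives, 37 stayed within the interval of the reported value and 28 moved beyond it. The median width difference of 2 bp changed sign, within its interval, to −1 bp with summits within 100 bp and to −1 bp at a −log10 q of at least 10. The cause of the moves was not tested beyond what each alternative leaves out. The share of FUL2-J2 peaks shared was 38.9% with summits within 100 bp, 38.4% at a −log10 q of at least 10, 29.8% among the 4000 strongest peaks and 40.1% at a fold of at least 3. That of FUL2-TM3 peaks was 18.1, 23.9, 29.8 and 26.9% under the same settings, and 35.7% without the ends. The median percentile of FUL2-J2 only was 40.8 at a −log10 q of at least 10 and 46.6 by fold, and that of FUL2-TM3 only 42.6 without the ends and 42.0 by fold. The median summit distance was 18 bp with summits within 100 bp, 18 bp at a −log10 q of at least 10 and 17 bp among the 4000 strongest peaks.

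The share of FUL2-TM3 only within 1 Mb of an end was 47.6% at a −log10 q of at least 10, 40.5% among the 4000 strongest peaks, 42.3% at a fold of at least 3, 59.2% without the unplaced sequence and 58.5% with a window of 2 Mb. The cuts by −log10 q, by fold and to the 4000 strongest peaks were made in the MC lists as well. The last kept 4000 of 11457 MC-TM3 peaks and 4000 of 4677 MC-J2 peaks. The shares below under these cuts are thus not those of strong peaks in the whole MC lists. The share of FUL2-J2 only with an MC-J2 peak, 66.0% over all peaks, was 69.5% among the 4000 strongest. The share of FUL2-TM3 only with an MC-TM3 peak, 33.3% over all peaks, was 25.9% with an overlap of 50%, 25.7% with summits within 100 bp, 35.8% at a −log10 q of at least 10, 23.5% among the 4000 strongest, 35.4% at a fold of at least 3 and 47.5% without the ends.

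No paired analysis was possible because each complex has a single pooled list. For the same reason no library was left out in turn, and differences between libraries are not measured. A region without a peak in a list was not called there, which does not show that the complex did not bind. The smallest number of reads at a called summit was 71 in FUL2-J2 and 46 in FUL2-TM3, so depth sets another limit in either list.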
